A study of Rattus norvegicus with 20 samples.

Results

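The comparison described here asks how the transcriptional response of rat subplate neurons to coculture changed between 24 and 96 h. It is the coculture effect (cocultured minus control, log2) at 96 h minus the coculture effect at 24 h, taken within each replicate number. It uses 20 of the 20 arrays of the series and all 31042 non-control probe sets, and gives 5 values per probe set. A response grew where its effect had the same sign at both times and was larger at 96 h, and faded where it was smaller. It crossed 0 where the signs were opposite, and it reversed where each of the opposite effects also passed its own test.

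The 4 groups were subplate neurons cocultured for 96 h, their controls at 96 h, subplate neurons cocultured for 24 h, and their controls at 24 h, with 5 biological replicates in each. All neurons came from the posterior neocortex of rat embryos at day 17, were bound to a plate carrying anti-p75 (p75 is a receptor for neurotrophins), and were cultured in serum-free medium on coverslips. Cocultured coverslips sat above a dense layer of cortical cells, held apart by wax dots, while control coverslips sat above wells with wax dots and medium alone. RNA came from the coverslips, usually several pooled per condition, so each array averages over the neurons and any other cells that passed the selection. The feeder layers were made from the cells that did not bind the plate. The labels do not say whether arrays with the same number share a dissection.

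Subplate neurons are among the earliest neurons of the cortex. They lie beneath the cortical plate, receive early thalamic input and largely disappear as the cortex matures. Feeder layers of neurons and glia release soluble factors, among them cholesterol carried on apolipoprotein E and secreted matrix proteins, which are known to promote synapse formation in cultured neurons. Cells that receive cholesterol from outside usually lower their own synthesis through the SREBP transcription factors.

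Each deposited value is a ratio to its own probe set's median, which puts no 2 genes on a common scale, and every value below is a log2 ratio or a difference of log2 ratios. Array-wide measures also differed between the times. The 18 hybridisation control probe sets, RNAs added to each sample before hybridisation, had a coculture effect of 1.33 ± 0.26 at 96 h and 0.86 ± 0.22 at 24 h (SD, n = 5 each), a difference of 0.46 ± 0.23 that was positive in 5 of 5 replicate numbers. The median of the 17191 probe sets on the authors' expressed list had an effect of -0.24 ± 0.16 at 96 h and -0.14 ± 0.12 at 24 h (SD, n = 5 each), and the difference was negative in 5 of 5. For the other 13851 probe sets the effects were 0.27 ± 0.15 at 96 h and 0.13 ± 0.12 at 24 h (SD, n = 5 each), and the difference was positive in 5 of 5. An exact sign-flip test (two-sided, n = 5) gave p = 0.0625 for each of the 3 measures, the smallest p that 5 values allow. The cocultured arrays of replicate 5 stood apart, with interquartile ranges of 1.27 at 96 h and 1.12 at 24 h, against 0.71 or less on the other 18 arrays. The part of these shifts in the results on single genes was not tested. Counts after centring each array on its expressed median are given beside the counts of list members.

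**Figure D1:**
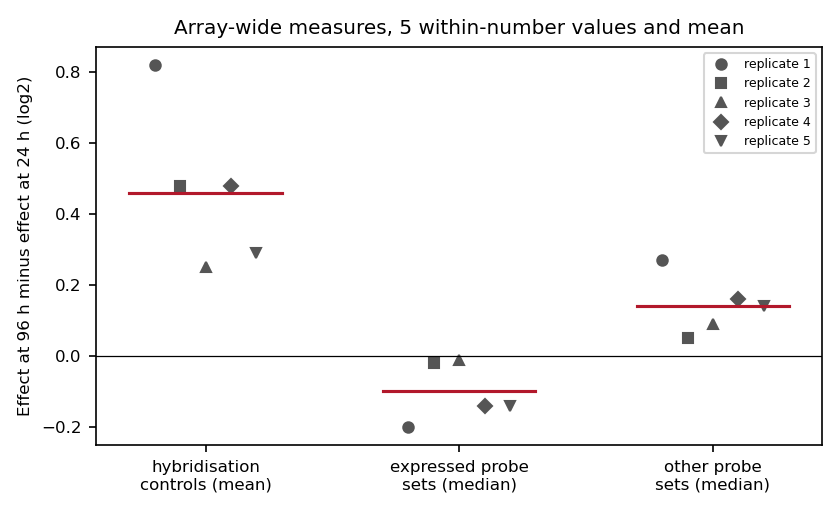
Array-wide measures as the coculture effect at 96 h minus that at 24 h (log2, vertical axis) for the mean of the hybridisation controls, the median of expressed probe sets and the median of other probe sets; symbols are the 5 replicate numbers and red bars their means. All 5 values lie above 0 for hybridisation controls and other probe sets, and all 5 lie below 0 for expressed probe sets.

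Growing falls were the most common change. Among 8119 named genes the difference between times was higher in 247 (3.04%) and lower in 1451 (17.9%) at an adjusted p under 0.05, by limma on the 5 within-number values with Benjamini-Hochberg adjustment over all genes, or 20.9% in either direction. For comparison, the effect itself was called up in 862 genes (10.6%) and down in 4092 (50.4%) at 96 h, and up in 691 (8.51%) and down in 2961 (36.5%) at 24 h. Of these called genes, 1277 were falls that grew, 129 were rises that grew, 51 were falls that faded and 22 were rises that faded. A further 211 crossed 0 and 8 reversed. Falls that grew combined a median change between 24 h and 96 h of -0.34 in cocultured cells with one of 0.17 in control cells, whereas for falls that faded these medians were 0.66 in cocultured and 0.08 in control cells. For probe sets the counts were 553 higher (1.78%) and 1553 lower (5.0%) of 31042, or 6.78% in either direction.

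These counts rest on comparing arrays within replicate numbers. A fit without the replicate number called 4 genes, namely Lpl, Ak4, Snx18 and Garin5a, with 466 genes at an unadjusted p under 0.05. Every other gene called below passed on within-number values and not in that fit. With the number as a fixed block in a 20-array fit, 869 genes were called, and 855 of them were among the 1698. Of the called genes named below, Acan, S100b, Sparcl1, Aldoc, Bcas1, Flt1, Calb2, Srebf1, Nsdhl, Insig1, Srebf2, Nr4a2, Scg2, Egr2, Gabra5, Slc2a3, Epas1, Slc17a7, Gria1, Dlg3, Dlg2, Nrxn3 and Tpbg were not called in that fit. Nor were Dpysl2, Dusp6, Kars1, Gpx4, Cks2, Ccnb2, Bub1 and Tk1. Centring each array on its expressed median gave 392 higher (4.83%) and 744 lower (9.16%), so that 34.5% of calls were higher, against 14.5% without centring. The share of higher calls was 54.9% after centring among probe sets, against 26.3% without it. The median difference of all named genes was -0.16, and -0.06 after centring. With the hybridisation controls as a covariate and no block, 44 genes were higher and 39 lower, so 53.0% of the calls were higher. This fit also leaves out the replicate number, so its counts do not isolate the part of the hybridisation controls. Leaving out replicate 1, 3 or 4 left 1104, 835 or 366 calls, while 1619 were made without replicate 5, whose cocultured arrays stood apart. In all, 269 genes (46 higher, 223 lower) were called in the same direction under the fixed block, centring, cyclic loess and every left-out number.

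**Figure D2:**
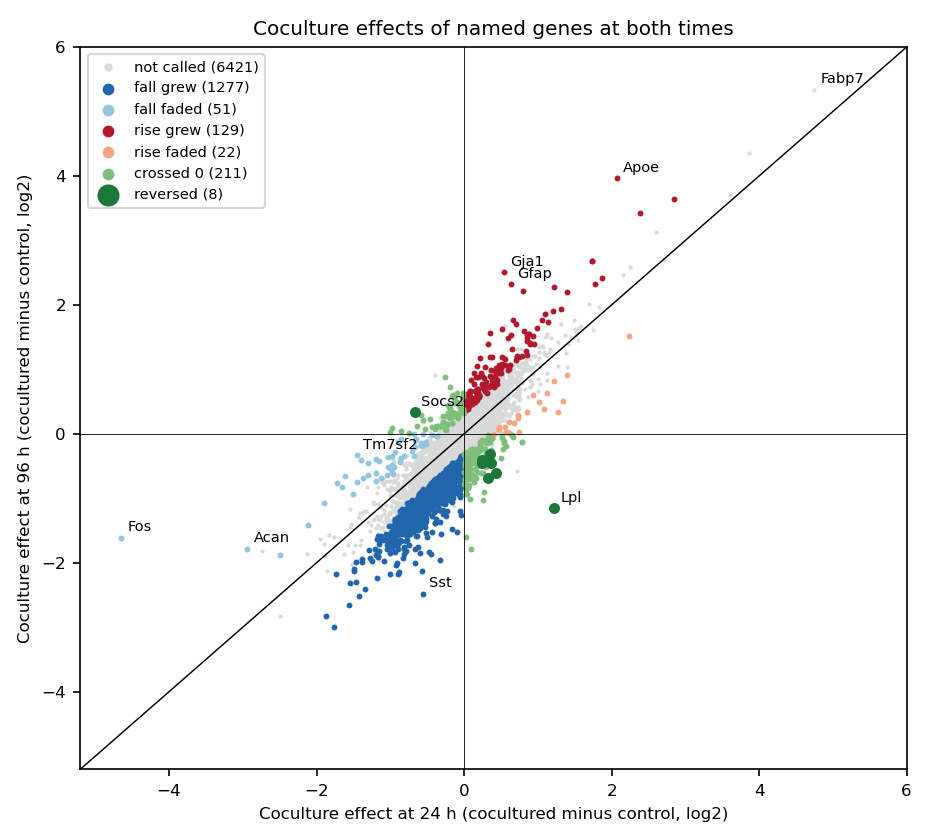
Coculture effect at 96 h (vertical axis, log2) against that at 24 h (horizontal axis, log2) for 8119 named genes, coloured by class of response; the diagonal marks equal effects. Most coloured points are the 1277 falls that grew, below the diagonal at the lower left, while Fos, Acan and Tm7sf2 lie above it among the 51 falls that faded.

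Lpl had the largest lower difference and changed direction. It encodes lipoprotein lipase, which releases fatty acids from lipoproteins. Its log2 ratios in replicates 1 to 5 were -1.61, -0.78, -0.97, -0.95 and -1.02 in cocultured cells at 96 h, against 0.21, -0.21, 0.17, -0.01 and 0.27 in control cells at 96 h. Lpl ratios at 24 h were 1.25, 1.45, 1.60, 1.18 and 0.15 in cocultured cells, against -0.19, -0.18, 0.09, -0.20 and 0.01 in control cells. Cocultured cells were thus below every control array at 96 h and above every control array at 24 h, with replicate 5 the closest to controls at 24 h. The effect was -1.15 ± 0.46 at 96 h and 1.22 ± 0.61 at 24 h (SD, n = 5 each), or 2.23-fold lower and 2.33-fold higher. The difference of -2.37 ± 0.66 had the same sign in 5 of 5 numbers (adjusted p = 0.00133, limma), also passed without the replicate number (adjusted p = 0.000932, limma), and was called with each number left out.

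In total 7 of the 8 reversals were of this kind, a rise at 24 h and a fall at 96 h, and 1 was the opposite. Lower differences were also the common direction among all called genes, with 1451 of 1698. The number of reversals was unstable, at 2, 5, 3, 1 and 36 with replicates 1 to 5 left out in that order. Nefm, the medium neurofilament subunit of axons, had ratios of -1.56, -0.47, -0.57, -0.01 and -0.43 in cocultured cells at 96 h, against -0.43, 0.38, 0.13, 0.30 and 0.01 in control cells at 96 h. At 24 h its ratios were -0.76, 0.48, 0.29, 0.58 and 0.02 in cocultured cells, against -0.91, 0.07, -0.20, 0.25 and -0.27 in control cells. The 2 groups overlapped at each time, but cocultured cells were lower than the control of the same number in all 5 numbers at 96 h and higher in all 5 at 24 h. The Nefm difference was -1.02 ± 0.31 (SD, n = 5; adjusted p = 0.00321, limma). Prnp, which encodes the prion protein, had an effect of -0.32 ± 0.27 at 96 h and 0.35 ± 0.28 at 24 h (SD, n = 5 each). Fbxo39, Nebl, Cgrrf1 and Blnk had effects between -0.61 and -0.40 at 96 h and between 0.24 and 0.43 at 24 h, and Nebl lost its call when 1 of the numbers was left out.

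Socs2 ran the other way. It encodes a feedback inhibitor of growth hormone and other cytokine receptor signals. Its ratios were 0.31, 0.47, 0.68, 0.46 and -0.33 in cocultured cells at 96 h, against -0.10, 0.19, 0.22, -0.03 and -0.37 in control cells at 96 h. Socs2 ratios at 24 h were -0.74, -0.40, -0.27, -0.30 and -1.0 in cocultured cells, against 0.31, 0.03, 0.39, 0.24 and -0.31 in control cells. Replicate 5 was the lowest in each of the 4 groups, and the sign within each number was the same in all 5. The effect was 0.34 ± 0.19 at 96 h and -0.67 ± 0.23 at 24 h (SD, n = 5 each), a difference of 1.01 ± 0.31 (adjusted p = 0.0035, limma).

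**Figure D3:**
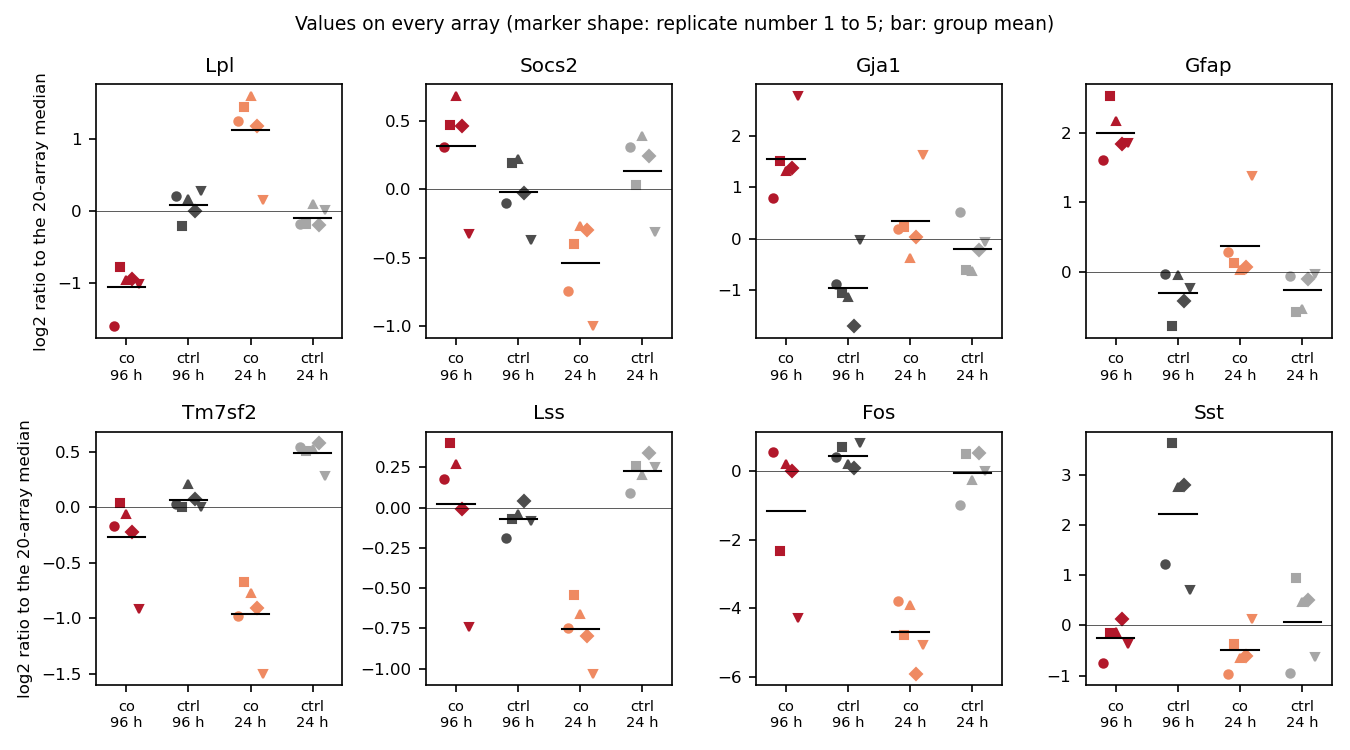
Log2 ratio to the median of the 20 arrays (vertical axis) on every array for Lpl, Socs2, Gja1, Gfap, Tm7sf2, Lss, Fos and Sst, with cocultured left of control cells and 96 h left of 24 h; marker shapes are replicate numbers and bars group means. Lpl is lowest in cocultured cells at 96 h and highest in cocultured cells at 24 h, and Tm7sf2 and Lss are lowest in cocultured cells at 24 h.

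The growing rises were led by genes of astrocytes, the glia that supply cholesterol, couple through gap junctions and surround synapses. Of 16 measured astrocyte markers, 7 were higher at 96 h than at 24 h in their coculture effect and 1 was lower (8 and 1 after centring, 3 and 1 with a fixed block). The shares over all named genes were 3.04% higher and 17.9% lower (4.83% and 9.16% after centring). The median effect of the 16 was 1.43 at 96 h and 0.68 at 24 h, and the median difference was 0.40, beside -0.16 for all named genes. The mean difference of the 16 in replicates 1 to 5 was 0.43, 0.47, 0.61, 1.21 and 0.32, largest in replicate 4. Their mean ratio was 0.54 to 1.14 in cocultured cells at 96 h, against -0.90 to -0.63 in control cells at 96 h. At 24 h it was 0.16 to 0.88 in cocultured cells, against -0.89 to -0.17 in control cells. In these pooled cultures, fewer cells of a type and less RNA per cell cannot be told apart.

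Gja1, which encodes the gap junction protein connexin 43, had ratios of 0.79, 1.5, 1.31, 1.37 and 2.77 in cocultured cells at 96 h, against -0.87, -1.06, -1.14, -1.70 and -0.03 in control cells at 96 h. Gja1 ratios at 24 h were 0.18, 0.23, -0.37, 0.03 and 1.63 in cocultured cells, against 0.51, -0.61, -0.62, -0.22 and -0.07 in control cells. The groups were apart at 96 h and overlapped at 24 h. The difference was 1.97 ± 0.63 (SD, n = 5; adjusted p = 0.0018, limma), made of a change of 1.21 in cocultured and of -0.76 in control cells between 24 h and 96 h.

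Gfap, the intermediate filament of astrocytes, had ratios of 1.62, 2.54, 2.18, 1.84 and 1.86 in cocultured cells at 96 h, against -0.04, -0.79, -0.05, -0.43 and -0.23 in control cells at 96 h. Gfap ratios at 24 h were 0.28, 0.13, 0.03, 0.06 and 1.38 in cocultured cells, against -0.07, -0.58, -0.54, -0.11 and -0.03 in control cells. Cocultured cells exceeded every control array at each time, by a small margin at 24 h outside replicate 5. The fold of cocultured over control cells was 4.98 at 96 h and 1.56 at 24 h, and the difference was 1.68 ± 0.74 (SD, n = 5; adjusted p = 0.0048, limma).

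Apoe, the lipid carrier of brain lipoproteins, had ratios of 1.36, 2.25, 2.17, 2.02 and 2.27 in cocultured cells at 96 h, against -2.24, -2.18, -1.73, -2.12 and -1.5 in control cells at 96 h. Apoe ratios at 24 h were -0.03, 1.05, 0.33, 0.39 and 1.42 in cocultured cells, against -1.92, -2.24, -1.93, 0.03 and -1.16 in control cells. The control array of replicate 4 at 24 h stood apart from the other 4, and Fabp7, a lipid-binding protein typical of radial glia, was at -0.98 on that array and between -5.44 and -3.55 on the other 4. The Apoe difference was 1.89 ± 1.09 (SD, n = 5; adjusted p = 0.00876, limma) and was called with each number left out, with an adjusted p of at most 0.0275.

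Other astrocyte markers with a growing rise included S100b, a calcium-binding protein (difference 0.60 ± 0.26), and Sparcl1, a secreted protein known to promote synapses (0.40 ± 0.10; SD, n = 5 each). Aldoc crossed 0, with an effect of 0.34 at 96 h and -0.06 at 24 h. Cst3, the secreted protease inhibitor cystatin C, was the marker that fell further, with an effect of -0.72 at 96 h and -0.20 at 24 h. S100b, Sparcl1, Aldoc and Cst3 each lost the call when at least 1 of the numbers was left out. The other 8, among them Slc1a3, Glul, Aqp4 and Fabp7, did not pass the test, and Aqp4 had effects of -0.19 at 96 h and -0.17 at 24 h.

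Other lists of glia and non-neural cells had 1 call or none each, beside 3.04% of all named genes called higher. Of 10 radial glia and progenitor markers 1 was higher (2 after centring), Ptprz1, a receptor phosphatase (difference 0.95 ± 0.33, SD, n = 5; adjusted p = 0.0046, limma), and all 10 differences were above 0, between 0.04 and 0.95. Between 24 h and 96 h Ptprz1 changed by 0.03 in cocultured and by -0.91 in control cells. The mean difference of the 10 in replicates 1 to 5 was 0.26, 0.14, 0.11, 0.76 and 0.29, largest in replicate 4. Of 9 oligodendrocyte lineage markers 1 was higher, Bcas1 (0.80 ± 0.73, SD, n = 5), which lost its call when replicate numbers were left out. Endothelial markers gave 1 of 2, Flt1, which also lost its call when numbers were left out. By limma 0 of 3 meningeal fibroblast markers passed (1 after centring). None of the 15 listed microglial markers was among the named genes.

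Growing rises were also found outside the astrocyte list. Ntf3, neurotrophin 3, had ratios of -0.16, 0.86, 0.76, 1.35 and 1.33 in cocultured cells at 96 h, against -0.67, -0.98, -0.98, -1.01 and -0.07 in control cells at 96 h. At 24 h its ratios were -0.63, 0.22, 0.13, 0.42 and 0.68 in cocultured cells, against -0.61, -0.55, -0.51, 0.07 and 0.68 in control cells. Replicates 1 and 5 did not differ by over 0.1 between cocultured and control cells at 24 h. Its difference was 1.22 ± 0.54 (SD, n = 5; adjusted p = 0.0053, limma).

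Dgkb, a diacylglycerol kinase, had ratios of 1.76, 2.79, 2.73, 1.80 and 0.82 in cocultured cells at 96 h, against 0.06, -0.20, 0.01, -0.37 and -0.62 in control cells at 96 h. Dgkb ratios at 24 h were -0.01, 0.89, 0.88, 0.24 and -0.28 in cocultured cells, against -0.18, -0.54, -0.33, -0.50 and -0.73 in control cells. The difference was 1.40 ± 0.24 (SD, n = 5; adjusted p = 0.0013, limma). Calcrl, the receptor subunit for calcitonin gene-related peptide and adrenomedullin, had a difference of 1.10 ± 0.33, and Inhbb, a subunit of activin B, one of 1.07 ± 0.56 (SD, n = 5 each; adjusted p = 0.00289 and 0.00876 in that order, limma). Among 24 trophic and synaptogenic genes 3 were higher and 0 lower by limma (4 and 0 after centring): Ntf3, Fgf13 and Sparcl1. Over all named genes 3.04% were higher and 17.9% lower (4.83% and 9.16% after centring). Fgf13 lost its call when at least 1 of the numbers was left out. Bdnf was not called, with effects of -2.12 at 96 h and -1.86 at 24 h. Garin5a, chosen after its values were seen because it was called without the replicate number, had an effect of 1.05 ± 0.27 at 96 h and 0.17 ± 0.10 at 24 h (SD, n = 5 each).

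**Figure D4:**
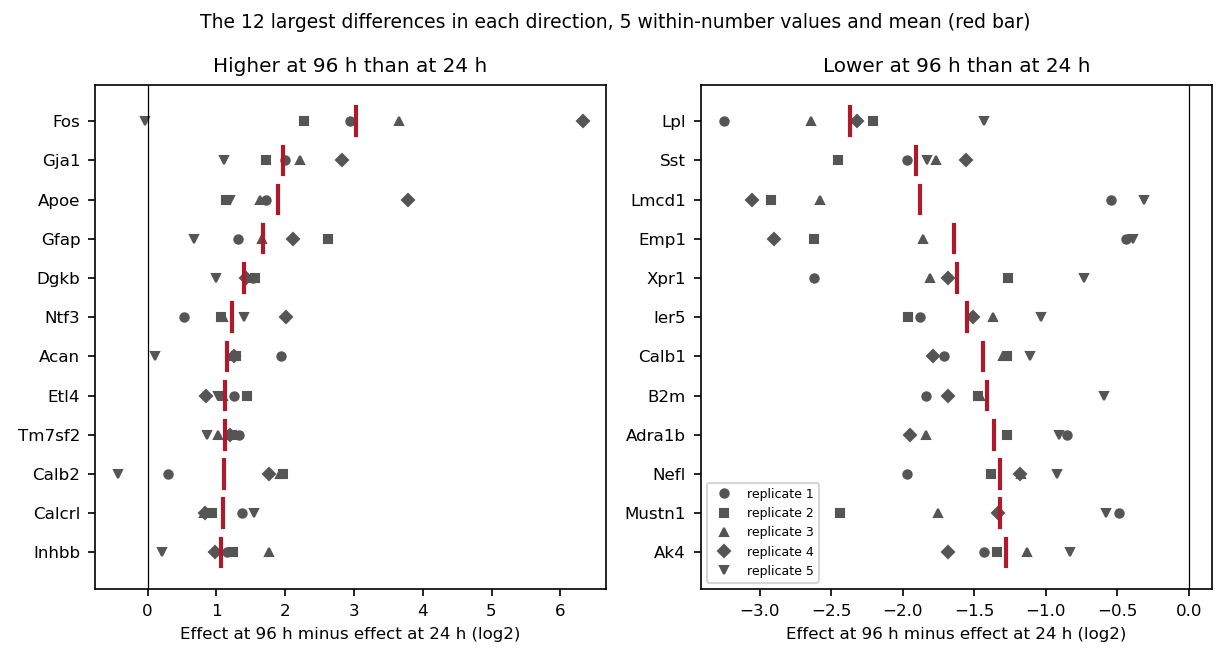
Coculture effect at 96 h minus that at 24 h (horizontal axis, log2) for the 12 largest called differences in each direction, higher on the left panel and lower on the right; symbols are the 5 replicate numbers and red bars their means. Lmcd1, Emp1 and Mustn1 split by number, with replicates 1 and 5 between -0.58 and -0.31 and replicates 2 to 4 lower, and Fos (-0.04) and Calb2 (-0.43) have replicate 5 below 0.

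Falls that faded were led by cholesterol synthesis. Of 28 measured genes of cholesterol synthesis and uptake, 13 were higher at 96 h than at 24 h in their effect and 0 were lower by limma (20 higher and 0 lower after centring, 6 and 0 with a fixed block, 6 and 0 with the hybridisation covariate and no block). Over all named genes 3.04% were higher and 17.9% lower (4.83% and 9.16% after centring). Of the 13, 11 were falls that faded, Lss crossed 0, and Srebf1, a transcription factor of lipid synthesis, was a rise that grew. The median effect over the 28 was -0.47 at 96 h and -0.74 at 24 h, and 24 of 28 differences were above 0. All named genes had median effects of -0.34 at 96 h and -0.19 at 24 h. The mean difference of the 28 in replicates 1 to 5 was 0.32, 0.55, 0.51, 0.37 and 0.25.

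Tm7sf2, a sterol reductase of the pathway, had ratios of -0.17, 0.04, -0.06, -0.22 and -0.92 in cocultured cells at 96 h, against 0.03, 0.00, 0.21, 0.08 and 0.00 in control cells at 96 h. Tm7sf2 ratios at 24 h were -0.98, -0.67, -0.77, -0.91 and -1.5 in cocultured cells, against 0.55, 0.51, 0.53, 0.58 and 0.28 in control cells. The groups overlapped at 96 h and were wide apart at 24 h. Cocultured cells were 1.26-fold lower at 96 h and 2.74-fold lower at 24 h, a difference of 1.12 ± 0.18 (SD, n = 5; adjusted p = 0.00133, limma).

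Lss, lanosterol synthase, which closes the sterol rings, had ratios of 0.18, 0.40, 0.27, -0.01 and -0.74 in cocultured cells at 96 h, against -0.19, -0.07, -0.04, 0.04 and -0.08 in control cells at 96 h. Lss ratios at 24 h were -0.75, -0.54, -0.66, -0.80 and -1.03 in cocultured cells, against 0.09, 0.26, 0.20, 0.34 and 0.25 in control cells. At 96 h 3 of the 5 cocultured cultures exceeded all controls, while replicate 5 was far below them. The difference was 1.07 ± 0.26 (SD, n = 5; adjusted p = 0.00243, limma).

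Mvd, which makes the isoprene unit from mevalonate, had ratios of -0.28, 0.41, 0.08, -0.25 and -1.65 in cocultured cells at 96 h, against 0.37, 0.68, 0.69, 0.46 and -0.09 in control cells at 96 h. Mvd ratios at 24 h were -1.46, -0.92, -1.14, -1.23 and -2.47 in cocultured cells, against 0.08, 0.61, 0.58, 0.34 and -0.21 in control cells. Within each number cocultured cells were below control cells at both times, by less at 96 h. Its difference was 0.96 ± 0.22 (SD, n = 5; adjusted p = 0.00283, limma).

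Further fading falls of the pathway were Ebp (difference 0.79 ± 0.17), Mvk, mevalonate kinase (0.69 ± 0.22), and Nsdhl (0.49 ± 0.10; SD, n = 5 each). Insig1, which retains the SREBP complex in the endoplasmic reticulum when sterols are plentiful, had effects of -0.36 at 96 h and -1.03 at 24 h. Srebf2, the main sterol-responsive transcription factor, had effects of -0.03 at 96 h and -0.37 at 24 h. Insig1, Srebf1 and Srebf2 lost the call when at least 1 of the numbers was left out. Among those not called, Sqle, squalene epoxidase, had effects of -0.49 at 96 h and -0.67 at 24 h, and Sc5d, a sterol desaturase, had -1.19 at 96 h and -1.33 at 24 h.

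The sequences upstream of the start site are shown for the 3 members of the list with the smallest p, because the list moved together. In RefSeq promoters of assembly GRCr8, 22 of the 28 genes had an entry. A sterol regulatory element written as TCACNCCAC was found on either strand in 0 of 22 windows of 250 bases upstream of the start site and in 0.976% of 27457 promoters. The CCAAT box, searched on both strands and chosen for display after the first search had no match in the list, was found in 17 of 22 (77.3%), against 34.3% of the 27457. It was in 9 of the 11 called and 8 of the 11 uncalled genes. With no match to the first motif in these windows the 2 cannot overlap here, and a match or its lack in this window is a description of letters alone. The windows are those of Tm7sf2 (chr1:212789542-212789791, minus strand), Lss (chr20:12118231-12118480, minus strand) and Mvd (chr19:67414975-67415224, minus strand), each 5′ to 3′ up to the start site, with the CCAAT box in capitals, here read as ATTGG since it lies on the opposite strand.
Tm7sf2: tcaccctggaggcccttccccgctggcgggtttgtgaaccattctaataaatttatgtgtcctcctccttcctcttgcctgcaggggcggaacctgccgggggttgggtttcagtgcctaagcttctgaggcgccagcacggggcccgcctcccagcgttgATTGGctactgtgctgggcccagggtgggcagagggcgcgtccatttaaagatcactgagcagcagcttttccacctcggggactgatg
Lss: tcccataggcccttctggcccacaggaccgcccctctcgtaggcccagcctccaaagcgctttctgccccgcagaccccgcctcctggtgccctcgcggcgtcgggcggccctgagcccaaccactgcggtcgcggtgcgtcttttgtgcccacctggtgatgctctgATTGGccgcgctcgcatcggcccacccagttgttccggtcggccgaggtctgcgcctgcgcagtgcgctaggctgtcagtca
Mvd: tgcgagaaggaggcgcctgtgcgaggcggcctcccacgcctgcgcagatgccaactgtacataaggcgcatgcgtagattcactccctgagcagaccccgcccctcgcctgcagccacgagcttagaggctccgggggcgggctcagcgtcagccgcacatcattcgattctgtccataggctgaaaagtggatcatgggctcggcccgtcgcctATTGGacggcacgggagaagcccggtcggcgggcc

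The largest single fading fall was Fos, the immediate-early transcription factor induced by activity. Its ratios were 0.57, -2.31, 0.21, 0.00 and -4.29 in cocultured cells at 96 h, against 0.42, 0.70, 0.21, 0.10 and 0.82 in control cells at 96 h. Fos ratios at 24 h were -3.77, -4.78, -3.91, -5.90 and -5.07 in cocultured cells, against -0.98, 0.51, -0.26, 0.54 and 0.00 in control cells. At 96 h 3 of 5 cocultured cultures lay near controls and 2 did not, whereas at 24 h all 5 were far below controls. Its difference was 3.03 ± 2.31 (SD, n = 5), positive in 4 of 5 numbers (adjusted p = 0.0176, limma), and it lost its call in 1 of the 5 fits that leave out a number.

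Acan, the proteoglycan aggrecan of the matrix around neurons, had ratios of 0.21, -0.39, -0.31, -0.75 and -1.17 in cocultured cells at 96 h, against 1.63, 1.72, 1.72, 1.63 and -0.21 in control cells at 96 h. Acan ratios at 24 h were -1.16, -1.92, -1.72, -2.29 and -0.88 in cocultured cells, against 2.19, 1.48, 1.55, 1.34 and 0.18 in control cells. Replicate 5 had the lowest control ratio at each time. The difference was 1.16 ± 0.66 (SD, n = 5; adjusted p = 0.00997, limma) and was not called with a fixed block (adjusted p = 0.0921, limma).

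Of 24 activity-regulated genes 2 were higher and 5 lower (2 and 4 after centring, 1 and 3 with a fixed block). Of all named genes 3.04% were higher and 17.9% lower (4.83% and 9.16% after centring). The share of lower calls before centring was thus near that of all named genes. Besides Fos, the transcription factor Nr4a2, also a subplate marker, was higher, with effects of 0.01 at 96 h and -0.74 at 24 h. Nrn1, the secreted protein neuritin, fell further, with a difference of -1.10 ± 0.21, as did Homer1, a postsynaptic scaffold protein (-0.75 ± 0.12), Klf4 (-0.63 ± 0.22) and Scg2 (-0.95 ± 0.56; SD, n = 5 each). The 6 probe sets of Homer1 had differences between -1.22 and -0.32, and not all of them were called. Egr2 crossed 0, with -0.59 at 96 h and 0.17 at 24 h. Of 9 measured subplate markers 3 were higher and 0 lower by limma (also after centring, 2 and 0 with a fixed block). They were Nr4a2, the dopamine receptor Drd1 (-0.08 at 96 h and -0.85 at 24 h) and Inpp4b (0.32 at 96 h and -0.20 at 24 h). Egr2 and Inpp4b lost the call when at least 1 of the numbers was left out. Ngfr, which encodes the p75 receptor used for panning, was not among the named genes. Gabra5, a GABA-A receptor subunit, had the smallest p among genes of inhibitory synapses, with effects of -0.12 at 96 h and -0.90 at 24 h, and was the only 1 of 17 called. Neither Gabra5 (adjusted p = 0.0856, limma) nor Nr4a2 (adjusted p = 0.131, limma) was called with a fixed block.

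Falls that grew took in much of energy metabolism. Of 61 oxidative phosphorylation genes, 37 were lower at 96 h than at 24 h in their effect and 0 were higher by limma (20 and 0 after centring, 29 and 0 with a fixed block, and 0 in either direction with the hybridisation covariate and no block). Among all named genes 17.9% were lower and 3.04% higher (9.16% and 4.83% after centring). The median effect of the 61 was -0.80 at 96 h and -0.41 at 24 h, and 60 of 61 differences were below 0. After centring, the median difference was -0.28, beside -0.06 for all named genes. The mean ratio of the 61 was -0.85 to -0.15 in cocultured cells at 96 h, against 0.00 to 0.58 in control cells at 96 h. At 24 h it was -0.75 to 0.08 in cocultured cells, against -0.19 to 0.43 in control cells.

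Atp5f1d, a subunit of the ATP synthase, had ratios of -0.92, -0.27, -0.35, -0.64 and -1.40 in cocultured cells at 96 h, against 0.70, 1.43, 1.47, 1.2 and 0.03 in control cells at 96 h. Atp5f1d ratios at 24 h were -0.49, 0.12, -0.03, -0.17 and -1.14 in cocultured cells, against 0.34, 1.15, 1.03, 0.88 and -0.22 in control cells. Cocultured and control cells were apart at 96 h and overlapped at 24 h through replicate 5. The difference was -0.70 ± 0.12 (SD, n = 5; adjusted p = 0.00444, limma). Sdhb, an iron-sulphur subunit of complex II, had a difference of -0.77 ± 0.21, and Atp5pb, another ATP synthase subunit, one of -0.74 ± 0.20 (SD, n = 5 each; adjusted p = 0.00489 and 0.00519 in that order, limma).

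Glycolysis moved the same way. Of 22 measured genes of glycolysis and hypoxia, 11 were lower and 2 higher (8 and 2 after centring, 7 and 0 with a fixed block, 0 in either direction with the hybridisation covariate and no block). Among all named genes 17.9% were lower and 3.04% higher (9.16% and 4.83% after centring). The lower ones of the 22 included Tpi1 (-0.68 ± 0.12), the muscle-type phosphofructokinase Pfkm (-0.69 ± 0.19) and Pdk1, a kinase that restrains pyruvate oxidation (-0.79 ± 0.26; SD, n = 5 each). Slc2a3, the neuronal glucose transporter, had effects of -1.51 at 96 h and -0.84 at 24 h, and Pkm, pyruvate kinase, of -1.21 at 96 h and -0.65 at 24 h. The higher ones were Epas1, a hypoxia-inducible transcription factor (2.42 at 96 h and 1.87 at 24 h), and Aldoc, also an astrocyte marker. Pkm, Epas1 and Aldoc lost the call when at least 1 of the numbers was left out. Ak4, a mitochondrial adenylate kinase, had ratios of -1.47, -1.04, -1.18, -1.40 and -1.07 in cocultured cells at 96 h, against 0.81, 1.16, 1.10, 1.15 and 0.46 in control cells at 96 h. Ak4 ratios at 24 h were -0.40, -0.20, -0.31, -0.34 and -0.53 in cocultured cells, against 0.45, 0.66, 0.84, 0.54 and 0.17 in control cells. The groups were apart at both times, and further apart at 96 h. The Ak4 difference of -1.28 ± 0.32 (SD, n = 5; adjusted p = 0.0017, limma) also passed without the replicate number (adjusted p = 0.0163, limma).

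**Figure D5:**
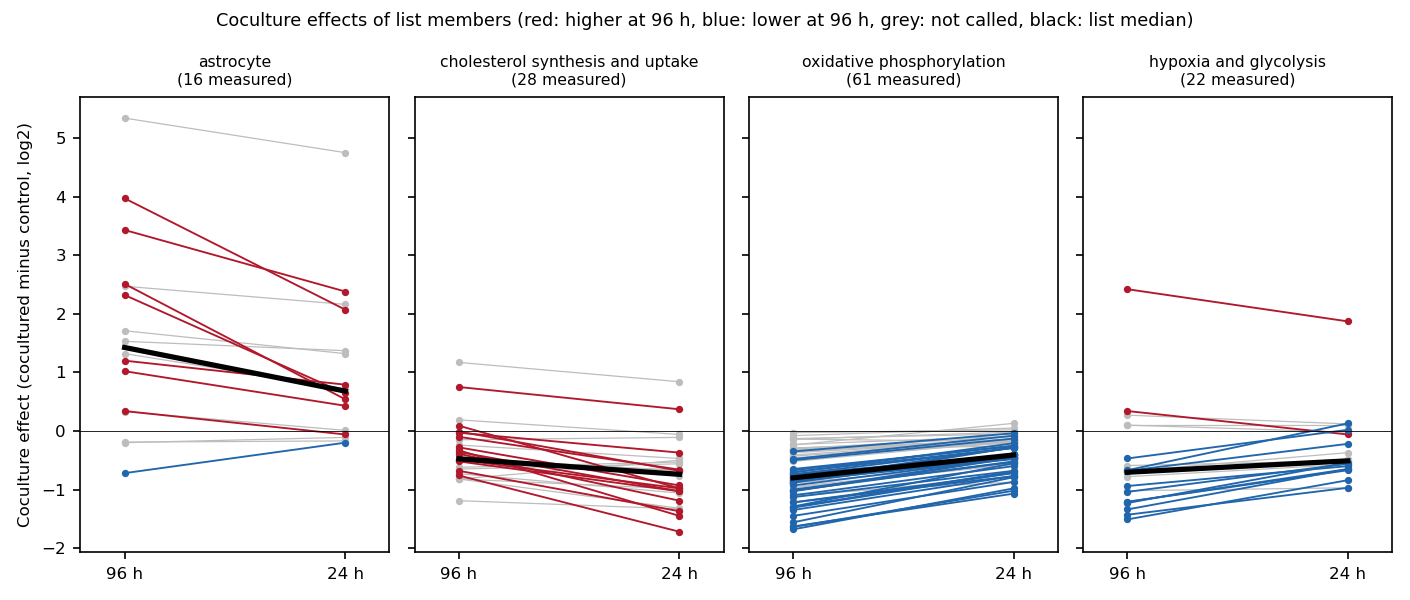
Coculture effect (vertical axis, log2) at 96 h (left) and 24 h (right) for the measured members of 4 gene lists (astrocyte, cholesterol, oxidative phosphorylation, glycolysis and hypoxia), 1 line per gene, with red for a higher and blue for a lower difference at 96 h, grey for genes not called and black for the list median. The median falls from left to right for astrocyte genes (1.43 at 96 h, 0.68 at 24 h) and cholesterol genes (-0.47 at 96 h, -0.74 at 24 h), and climbs for oxidative phosphorylation (-0.80 at 96 h, -0.41 at 24 h).

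Genes of protein production and turnover were called lower in part. Of 55 mitochondrial ribosomal protein genes 26 were lower and 0 higher by limma (12 and 0 after centring, 15 and 0 with a fixed block, 0 in either direction with the hybridisation covariate and no block), led by Mrps34 (-0.71 ± 0.15) and Mrps15 (-0.63 ± 0.15; SD, n = 5 each). Of 72 cytosolic ribosomal protein genes 14 were lower, and 4 were after centring, a share near that of all genes (17.9%). Of 42 proteasome genes 12 were lower (3 after centring and 3 with a fixed block), and of 19 aminoacyl-tRNA synthetase genes 5 were (2 after centring and 2 with a fixed block). After centring, the shares of both lists were near the 9.16% of all genes. Of 17 subunits of the vacuolar ATPase, the pump that acidifies vesicles, 9 were lower (6 after centring, 7 with a fixed block, 0 with the hybridisation covariate and no block), with Atp6ap1 at -0.98 ± 0.44 (SD, n = 5). None of the 17 had a difference above 0. Snx18, a sorting nexin of membrane traffic, had ratios of -1.24, -1.01, -0.90, -1.10 and -1.42 in cocultured cells at 96 h, against 0.74, 1.12, 0.97, 0.89 and 0.80 in control cells at 96 h. Snx18 ratios at 24 h were -0.53, -0.22, -0.27, -0.36 and -0.76 in cocultured cells, against 0.56, 0.72, 0.58, 0.43 and 0.19 in control cells. Its difference of -1.11 ± 0.16 (SD, n = 5) passed with the replicate number (adjusted p = 0.00133, limma) and without it (adjusted p = 0.0163, limma).

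For some genes the change lay mainly in control cells, which had higher ratios at 96 h than at 24 h. Sst, the neuropeptide somatostatin, had ratios of -0.75, -0.15, -0.13, 0.12 and -0.38 in cocultured cells at 96 h, against 1.23, 3.63, 2.75, 2.80 and 0.71 in control cells at 96 h. Sst ratios at 24 h were -0.96, -0.37, -0.65, -0.62 and 0.12 in cocultured cells, against -0.94, 0.95, 0.46, 0.50 and -0.63 in control cells. The groups were apart at 96 h and overlapped at 24 h. Between 24 h and 96 h the mean changed by 0.24 in cocultured and by 2.16 in control cells, and the difference was -1.91 ± 0.33 (SD, n = 5; adjusted p = 0.000883, limma), the smallest p among the named genes.

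Of 16 genes of neuropeptides and dense-core vesicles, 7 were lower and 1 higher (5 and 1 after centring and with a fixed block, 0 in either direction with the hybridisation covariate and no block). The shares over all named genes were 17.9% lower and 3.04% higher (9.16% and 4.83% after centring). Pam, which amidates peptides, had a difference of -0.83 ± 0.30, and Adcyap1, the peptide PACAP, of -0.75 ± 0.36 (SD, n = 5 each). Cadps2, a priming factor for dense-core vesicles, was the higher one, with effects of -1.07 at 96 h and -1.90 at 24 h. Calb1, the calcium buffer calbindin, had a difference of -1.44 ± 0.30, with a change between 24 h and 96 h of -0.16 in cocultured and 1.28 in control cells. Slit2, a repellent axon guidance ligand, had one of -1.18 ± 0.37 and Nefl, the light neurofilament subunit, of -1.32 ± 0.40 (SD, n = 5 each). Lmcd1, Emp1 and Mustn1 had differences of -1.88 ± 1.34, -1.64 ± 1.18 and -1.32 ± 0.82 (SD, n = 5 each), but their control arrays at 96 h split, as Emp1 was at 3.23, 2.31 and 2.82 in replicates 2, 3 and 4 and at 0.55 and 0.47 in replicates 1 and 5. Each of these 3 lost its call when 1 of the numbers was left out.

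For other genes cocultured cells changed more. Xpr1, a phosphate exporter, had effects of -1.60 at 96 h and 0.02 at 24 h, and the effect at 24 h was not called. Its difference was -1.62 ± 0.70, with a change between 24 h and 96 h of -1.71 in cocultured and -0.09 in control cells. Ier5, an early response gene, had a difference of -1.55 ± 0.38 with changes of -1.10 in cocultured and 0.45 in control cells. B2m, the light chain of MHC class I, had a difference of -1.41 ± 0.49 (SD, n = 5 each) with changes of -0.84 in cocultured and 0.57 in control cells. Its 2 probe sets gave -1.86 and -0.96.

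Presynaptic and postsynaptic genes were called lower about as often as all named genes (17.9%), and adhesion genes less often. Of all named genes 3.04% were called higher. Of 33 presynaptic genes 5 were lower and 1 higher (3 and 2 after centring, 1 and 1 with a fixed block). Slc17a7, the vesicular glutamate transporter, was among the lower ones, with effects of -1.34 at 96 h and -0.86 at 24 h, as was Syt4 with -1.0 at 96 h and -0.18 at 24 h. The 2 probe sets of Syt4 had effects of opposite sign at 24 h (0.15 and -0.51). Sv2c rose further, with 1.02 at 96 h and 0.50 at 24 h. Of 24 postsynaptic genes 4 were lower and 0 higher by limma (2 and 0 after centring, 1 and 0 with a fixed block), Homer1, Gria1, Dlg3 and Dlg2. Of these synaptic genes Slc17a7, Sv2c, Gria1, Dlg3, Dlg2 and Nrxn3 lost the call when at least 1 of the numbers was left out. Among 38 adhesion genes 3 were higher and 3 lower (3 and 2 after centring), and the neurexin Nrxn3 was at 0.77 at 96 h and 0.44 at 24 h.

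For most of the largest responses at 24 h no difference between times was called. Fabp7 had an effect of 5.34 ± 0.98 at 96 h and 4.75 ± 1.69 at 24 h (SD, n = 5 each), and its difference of 0.59 ± 2.17 was positive in 2 of 5 numbers and not called (adjusted p = 0.518, limma). Pdgfra, the receptor of oligodendrocyte precursors, had 4.36 at 96 h and 3.86 at 24 h, Olig1, a transcription factor of that lineage, had 3.71 at 96 h and 3.61 at 24 h, and Sox2, a progenitor factor, 3.13 at 96 h and 2.60 at 24 h. None of the 3 was called for the difference. Pcdh20, a protocadherin, had -2.83 at 96 h and -2.50 at 24 h, and Atf4, the transcription factor of the integrated stress response, had -1.63 at 96 h and -1.95 at 24 h. Of the 16 genes taken for the largest rises and falls at 24 h, 6 were called. Bcas1 was among those that rose further, and Fos, Acan, Rgs4 and Tpbg fell less at 96 h. Tpbg was called in 0 and Rgs4 in 1 of the 5 limma fits that leave out a number, and Tpbg was not called with a fixed block (adjusted p = 0.212, limma). For the 10 that were not called, a p above the threshold does not show that the effects were equal.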

How the data were processed

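The arrays were 20 Affymetrix rat arrays of subplate neurons, 5 in each of 4 groups. Per the labels' protocols, 100 ng of RNA was amplified in successive rounds before labelling. RMA and MAS5 are named, without version or role, in the submitters' processing notes. What the authors deposited is a linear ratio, made per the file headers by dividing RMA values by the probe set's median. That median, over all 20 arrays, equalled 1 to within 0.001 in 31069 of the table's 31099 probe sets. The annotated table that was also deposited gave the authors' mean ratio per group and the annotation of 17243 expressed probe sets. Ratios hide absolute signal, so no filter on dim probe sets beyond that list was possible.

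Ratios were turned to log2, 57 control probe sets were left out, and the 5 within-number values were tested with limma 3.58.1 (R 4.3.3; intercept alone, eBayes) with Benjamini-Hochberg adjustment at 0.05 over 31042 probe sets, or over 8119 genes. Symbols came from the deposited annotation, updated through the RefSeq table of GRCr8: 11143 probe sets by Entrez identifier, 24 by accession, 163 by symbol and 21 as deposited, while 217 matched several genes and 5623 none. This gave 11351 named probe sets, and a gene's value is the mean of its probe sets. The scripts were tested on simulated data. Some genes whose deposited symbols carried provisional suffixes were renamed after a first look at the fits.

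Members, lists and tests were chosen with earlier results of these data known. The genes named are the 12 largest called differences in each direction with at least 4 of 5 numbers of 1 sign, reversals (up to 10), up to 3 genes with the smallest p from each of 35 lists and the 8 largest rises and falls at 24 h. The genes called without the replicate number and further list members were added after their values were seen. Some genes that the rule names are not reported here.

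Arrays that share a number moved together: their deviations from group means correlated at 0.243 to 0.855 in 30 same-number pairs (median 0.524), and -0.846 to 0.737 in 120 other pairs (median -0.23). Because deviations within a group cancel out, positive correlations in same-number pairs go with negative ones in other pairs. What makes same-numbered arrays move together was not tested, and the correlations do not show a shared dissection. The comparison defines its values by number, so the numbers were taken to pair the arrays. The pairing comes from the replicate numbers of the labels. Alternatives were fits without the number, with it as a fixed or random block, array weights, a robust prior, centring, cyclic loess, expressed probe sets alone, a hybridisation covariate, a test for over 1.5-fold, 1 probe set (the first) per gene, and each number left out.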

Additional observations from a re-analysis of the deposited data

Results flagged for a closer look

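Of 138 named genes, 11 had 1 replicate number whose difference (effect at 96 h minus effect at 24 h) lay far from the other 4 by Dixon's criterion, where chance gives about 1 in 20. Replicate 5 was the distant number in 6 of them. It was at 0.33 for Ackr3 (others -1.27 to -0.84), 0.99 for Dgkb (others 1.43 to 1.56), -0.06 for Dpysl2 (others 0.52 to 0.75), 0.62 for Lss (others 1.09 to 1.26), -0.32 for Rgs4 (others 0.81 to 1.19) and -0.19 for Syt4 (others -1.06 to -0.84). The cocultured arrays of replicate 5 also had the widest spread of ratios. Replicate 4 was at 3.78 for Apoe (others 1.14 to 1.72). Replicate 1 was at -0.05 for Igfbp2 (others 0.34 to 0.49) and at -1.25 for Kars1 (others -0.58 to -0.43). Replicate 2 was at -0.87 for Rps9 (others -0.46 to -0.40) and at 0.03 for Spry2 (others -0.79 to -0.59).

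In addition 8 genes had coculture effects that each passed their own test in opposite directions at 96 h and 24 h, and the difference itself was tested. The differences were -2.37 for Lpl, -1.04 for Fbxo39, -1.02 for Nefm, -0.81 for Nebl, -0.69 for Cgrrf1, -0.68 for Prnp, -0.64 for Blnk and 1.01 for Socs2. Genes whose effects differed in size with 1 sign are the subject of the results above and are not repeated.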

How the results depend on the processing

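The counts depended on how the replicate number entered the fit. Without the replicate block 1 gene was higher and 3 lower (probe sets 1 and 5), of which 3 grew, 0 faded and 1 reversed by limma, with 466 genes at an unadjusted p under 0.05, and 850 genes had an effect at 24 h, against 3652. A fixed replicate block gave 108 higher and 761 lower genes (probe sets 217 and 768), with 729 grown, 31 faded and 109 crossing 0. A random replicate block gave 82 and 391 (probe sets 100 and 273), with 355, 23 and 95. Adding array weights to the fixed block gave 500 and 2316 (probe sets 1748 and 2984), with 2181, 144 and 491. Centring gave 392 and 744 (probe sets 885 and 727), with 862 grown. The hybridisation covariate without a block gave 44 and 39 (probe sets 51 and 51), with 41, 6 and 36, and 941 genes at 24 h and 1529 at 96 h, against 4954. A test for over 1.5-fold gave 2 and 4 (probe sets 2 and 5), with 5, 0 and 1, and 160 genes at 24 h and 890 at 96 h. Leaving out 1 replicate number gave 71 to 275 higher and 295 to 1344 lower genes (probe sets 51 to 386 and 146 to 1107), 285 to 1244 grown, 20 to 76 faded and 61 to 299 crossing 0, with 2643 to 4466 genes at 24 h and 3975 to 5164 at 96 h. The counts at 24 h and 96 h under these alternatives were added after seeing the data. Robust prior, cyclic loess, expressed probe sets alone and the first probe set of each gene kept these counts within 1.5 times, although 1 gene was called in the opposite direction by its first probe set. Of 138 named genes 27 lost their call with the fixed block, 104 without a block and 44 without replicate 4. Among genes called in either of the fits compared, 2 changed sign, Gpx4 at 0.02 with the hybridisation covariate and Zfp36l1, not called in the paired test, at 0.60 after cyclic loess (adjusted p = 0.0345, limma). Other named genes changed sign only where neither fit called them. Where a count moved, the cause was not tested, and the fits that leave out a number also had fewer arrays. Ratios give no signal over background, so how far dim probe sets limit these values is unknown.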

Other observations

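Cell division genes, which were higher in cocultured than in control cells at both times in the median (0.38 at 96 h and 0.55 at 24 h), held 3 of the 22 rises that faded. Of 19 measured, 7 were lower at 96 h than at 24 h in their effect and 1 was higher (4 and 1 after centring). Among all named genes 17.9% were lower and 3.04% higher (9.16% and 4.83% after centring). Pclaf, a partner of the replication clamp, had ratios of 1.11, 0.53, 0.45, 0.44 and 0.90 in cocultured cells at 96 h, against -0.84, -0.70, -0.85, -1.01 and -0.78 in control cells at 96 h. Pclaf ratios at 24 h were 1.28, 1.15, 1.17, 1.24 and 1.75 in cocultured cells, against -1.35, -1.02, -0.83, -0.64 and -0.74 in control cells. It remained above every control array at both times, and its difference was -0.71 ± 0.19 (SD, n = 5; adjusted p = 0.0052, limma). Cks2 and Ccnb2 also faded, while Racgap1, Bub1 and Ccna2 crossed 0, Mcm6 fell further and Tk1 was the higher one. Ccnb2, Bub1, Ccna2, Mcm6 and Tk1 lost the call when at least 1 of the numbers was left out. With a fixed block Cks2, Ccnb2, Bub1 and Tk1 were not called.

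For each list in this paragraph, the shares over all named genes to compare were 3.04% higher and 17.9% lower (4.83% and 9.16% after centring). Genes of amino acid supply and the stress response had median effects of -0.79 at 96 h and -0.56 at 24 h. They gave 4 lower of 20 (2 after centring), shares near those of all named genes. Slc7a3, a cationic amino acid transporter, had a difference of -1.26 ± 0.41, and Asns, asparagine synthetase, had one of -0.50 ± 0.29 (SD, n = 5 each). Their known regulator Atf4 was not called, with effects of -1.63 at 96 h and -1.95 at 24 h. Vldlr, a lipoprotein receptor, had effects of -1.19 at 96 h and -0.05 at 24 h. Asns lost its call when at least 1 of the numbers was left out. Among 9 genes of ERK feedback (1 higher and 2 lower, 1 and 1 after centring) the phosphatase Dusp6 fell less at 96 h (-0.74, against -1.45 at 24 h), while Spry2 fell further (-1.41, against -0.85 at 24 h). Each was called in 2 of the 5 fits that leave out a number, and Dusp6 was not called with a fixed block (adjusted p = 0.113, limma). Of 30 voltage-gated channel genes 3 were higher and 3 lower (5 and 1 after centring), and the sodium channel Scn1a had the smallest p, at -1.0 at 96 h and -0.15 at 24 h.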
